A study of Mus musculus with 12 samples.

Results

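Distal regions in introns were the ATAC-seq regions of mouse ES cells whose center lay more than 1 kb from any transcription start site (TSS), inside an annotated gene and in no exon of any gene. They numbered 64607 of the 170548 regions in the merged list, or 64607 of the 166526 regions on the 19 autosomes. ATAC-seq uses the Tn5 transposase to cut accessible DNA, so that each region marks a stretch of open chromatin. The list was taken as merged over 12 libraries in 6 groups of 2 replicates, and holds positions only, with no value for any library. Those groups were ZHBTc4 cells left untreated (OCT4 ON) or given 1 µg/ml doxycycline (OCT4 OFF) for 24 hr, and 2TS22C cells left untreated (SOX2 ON) or given the same dose (SOX2 OFF) for 26 hr or 40 hr. In ZHBTc4 a Tet-Off promoter drives Pou5f1, which encodes OCT4, and in 2TS22C it drives Sox2, so that doxycycline shuts off the transgene. Cells of all 6 groups were grown in serum with LIF and both inhibitors of the 2i medium. Each factor was thus tested in its own line. A region open in any group could enter the list, so a region cannot be traced to the ON or OFF state. The list does not name its libraries. Whether it also holds peaks of published ZHBTc4 data in serum and LIF, which the paper used too, is not known. No test over samples is possible on this list, and every interval below is a 95% interval that covers counting error only.

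Introns are removed from the primary transcript, yet they hold much of the regulatory DNA of mammalian genes. Enhancers inside an intron may act on the promoter of the host gene or on another gene. The first intron is on average the longest and lies nearest to the promoter. In ES cells many enhancers are bound by OCT4 and SOX2 together, on a composite motif in which a SOX half-site precedes an octamer, and others carry sites for KLF factors or ESRRB.

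The sequences below show what such intronic elements look like, with the match in capitals. In 5 of them, a 12-letter string that joins the 2 factors' sites, TTGTNATGCAAA, was found in the central 200 bp of an intronic region. These are the widest regions among 37 with this string in an intron of a single protein-coding gene, none of them on the list of pluripotency genes. The string was in 0.0619% of all intronic centers and that list holds 214 intronic regions, so its absence does not set the list apart. They are printed 5′ to 3′ on the strand of the match, from mm10.
Gm37240 intron 3, chr3:85338359-85338438, plus strand: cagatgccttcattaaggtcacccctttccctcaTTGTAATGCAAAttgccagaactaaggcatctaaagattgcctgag
Fam49a intron 3, chr12:12323920-12323999, plus strand: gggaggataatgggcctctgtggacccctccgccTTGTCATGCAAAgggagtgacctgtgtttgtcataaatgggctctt
Pdpk1 intron 1, chr17:24134197-24134276, plus strand: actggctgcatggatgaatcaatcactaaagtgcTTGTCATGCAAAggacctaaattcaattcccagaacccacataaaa
Cdh18 intron 1, chr15:22811955-22812034, minus strand: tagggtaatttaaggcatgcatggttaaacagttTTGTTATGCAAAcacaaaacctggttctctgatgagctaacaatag
Kif26b intron 5, chr1:178850738-178850817, plus strand: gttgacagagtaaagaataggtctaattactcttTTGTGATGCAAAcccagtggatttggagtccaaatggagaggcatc

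The regions around these matches were 951 bp wide in Gm37240, 834 bp in Fam49a, 760 bp in Pdpk1, 706 bp in Cdh18 and 705 bp in Kif26b. Their centers lay between 6562 bp (Pdpk1) and 97188 bp (Cdh18) from the nearest TSS. Pdpk1 encodes a kinase that activates AKT, and Cdh18 encodes a cadherin. The Cdh18 match begins with the shorter junction string TTGTTATGC. The Gm37240 intron belongs to an annotated transcript that spans 6 other protein-coding genes.

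The KLF string GGGTGTGGC was in 1.46% of all intronic centers. Genes on the pluripotency list hold 214 distal intronic regions. In their introns the string was found in the centers of 2 regions. One lies in the first intron of Esrrb, which encodes an orphan nuclear receptor of the pluripotency network, and the other in Tcf3, which encodes an E protein of the bHLH family.
Esrrb intron 1, chr12:86463206-86463286, plus strand: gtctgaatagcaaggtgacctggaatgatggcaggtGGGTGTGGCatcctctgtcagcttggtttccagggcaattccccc
Tcf3 intron 8, chr10:80418473-80418553, plus strand: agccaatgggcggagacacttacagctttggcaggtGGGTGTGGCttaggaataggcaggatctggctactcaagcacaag

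The Esrrb region was 435 bp wide and lay 102 kb from the transcript start. The Tcf3 region was 135 bp wide and lay 2201 bp from the nearest TSS. All 7 sequences were chosen after the motif counts were known, because the junction string TTGTTATGC was found in the center of 0 of 543 intronic regions in genes of the pluripotency, trophectoderm and primitive endoderm lists. The 2 regions of Gata6, on chromosome 18, are in this total but were not searched. The long annotated transcript of Fgfr2 supplied 204 of the 543. The string was in 0.204% of all intronic centers, so its absence does not set these lists apart.

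Introns held 46.9% of the 137895 distal autosomal regions (46.6 to 47.1%). A further 64262 distal regions were intergenic and 9026 had their center in an exon. The intronic share ranged from 40.7% on chromosome 3 to 52.2% on chromosome 19. Among the intronic regions, 88.2% lay in a protein-coding gene, and 7622 regions (11.8%) lay only in noncoding or other genes, mostly long intergenic noncoding RNAs.

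Per base, introns were denser in regions than intergenic sequence. An eligible base was defined as an assembled base more than 1 kb from any TSS and in no exon. The density was 67.0 regions per Mb in 965 Mb of eligible intron, or 1 region per 14.9 kb, and 53.6 per Mb in 1200 Mb of eligible intergenic sequence. The ratio was 1.25 (1.24 to 1.26). It was above 1 on all 19 autosomes, from 1.06 on chromosome 13 to 1.39 on chromosome 8. Chromosome 11 had the highest intronic density (80.8 per Mb) and chromosome 14 the lowest (55.4 per Mb).

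Intronic regions were narrow. Their median width was 336 bp (quartiles 211 and 540 bp), against 347 bp for intergenic distal regions, 385 bp for distal regions in exons and 754 bp for regions within 1 kb of a TSS. Only 3.90% of intronic regions reached 1 kb, against 34.7% of regions near a TSS. The nearest other region lay at a median of 3454 bp, and the nearest TSS at a median of 10311 bp (quartiles 4712 and 23056 bp). At the 1 kb limit the count was even, with 570 intronic regions in the first 100 bp beyond it and 631 intronic centers in the last 100 bp before it. A few intronic regions were of another size class. There were 12 of at least 4 kb, led by 58315 bp in Peak1, 35531 bp in Ptpdc1, 24539 bp in Ppp2r5a and 22409 bp in Ccdc92. Between 15.1% and 33.0% of the bases of these 4 were soft-masked as repeats. In the others of the 12 the share ran from 28.2% in Ube2q2 to 70.7% in Tmem267.

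First introns were denser in regions than later introns of the same class of genes. For each protein-coding gene, introns were taken from the transcript with the longest genomic span, in genes with at least 2 introns and in sequence that lies in exactly 1 protein-coding gene. First introns held 14711 regions in 193 Mb (76.2 per Mb), and later introns held 39344 regions in 593 Mb (66.4 per Mb). The ratio was 1.15 (1.13 to 1.17). It was above 1 on 18 of 19 autosomes, with 0.994 on chromosome 12 and the highest value, 1.31, on chromosome 4. First introns were thus 24.6% of the eligible bases and 27.2% of the regions. The density was 69.0 per Mb in intron 2, 67.1 in intron 3 and 60.2 in introns beyond number 20, while last introns had 70.6 per Mb.

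Within genes the difference was smaller than over all genes, and it was larger in sequence more than 5 kb from any TSS. With the gene as stratum, the Mantel-Haenszel ratio of first to later density was 1.02 (1.00 to 1.05). When the expected number in the first intron was computed from each gene's own regions and eligible bases, first introns of 7979 genes held 14293 regions where 14129 were expected. The ratio was 1.01, and its interval (0.995 to 1.03) included 1. It was above 1 on 11 of 19 autosomes. When first introns were set against later introns at the same distance from the transcript start, the ratio was 1.03 (1.01 to 1.04). The observed to expected ratio within genes lies nearer to 1 than a first to later ratio. Its expectation includes the first intron's own regions, while that at like distance came from later introns only. When only sequence more than 5 kb from any TSS was used, the Mantel-Haenszel ratio within genes was 1.15 (1.12 to 1.18). The observed to expected ratio was then 1.07 (1.05 to 1.09), beside a first to later ratio of 1.24 (1.22 to 1.27) over all genes. This setting compared 4225 genes within themselves, against 7979 above, and the part of this change of genes was not tested.

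The relation to distance was not monotonic. At 5 to 10 kb from the transcript start, first introns had 104 regions per Mb and later introns 93.0, a ratio of 1.12 (1.06 to 1.19). At 10 to 20 kb the densities were 104 and 92.0, a ratio of 1.13 (1.08 to 1.18). At 20 to 50 kb they differed by less than the counting error (86.3 and 84.0 per Mb). Farther out the order turned, with 65.3 in first and 76.2 in later introns at 50 to 100 kb (ratio 0.858, 0.815 to 0.902) and 44.7 against 49.6 beyond 100 kb. By length the order also turned. In introns under 5 kb, first introns had 54.6 regions per Mb (49.3 to 60.4) and later introns 78.7 (77.2 to 80.2), and at 5 to 10 kb of length the densities were 75.9 and 77.2. First introns of 20 to 50 kb were the densest class of introns by length, with 103 regions per Mb against 67.5 in later introns of that length. In introns over 200 kb the densities were 39.4 and 37.8 per Mb.

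**Figure D1:**
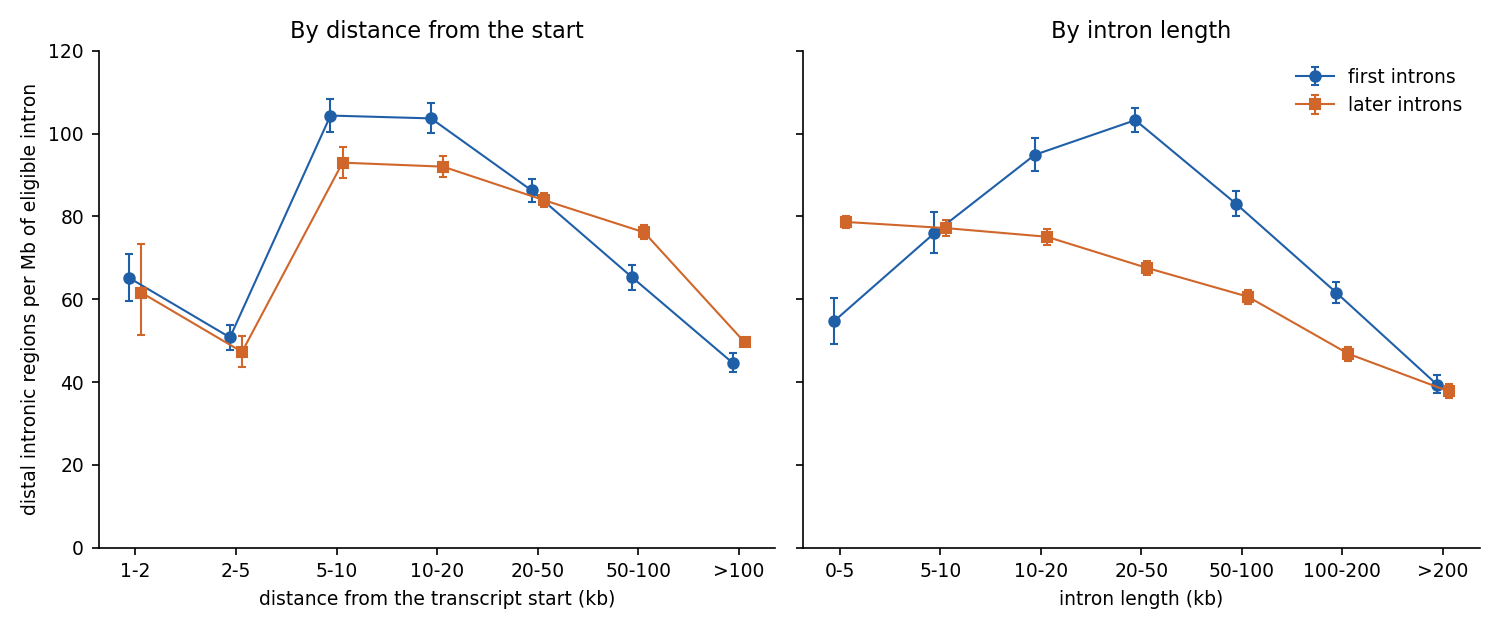
Distal intronic regions per Mb of eligible intron (y axis) in first introns (blue circles) and later introns (orange squares), by distance from the transcript start in kb (left) and by intron length in kb (right), with 95% Poisson intervals. First introns lie above later introns at 5 to 20 kb from the start and below them beyond 50 kb, and both drop below 70 per Mb within 5 kb of the start.

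Close to the transcript start, called intronic regions were sparse up to a sharp limit at 5 kb. The peak caller compares each candidate with the read density in surrounding windows, and the part of those windows in this limit was not tested. Over all protein-coding genes the density was 49.8 per Mb at 2 to 5 kb from the transcript start and 97.8 per Mb at 5 to 10 kb, a ratio of 0.509 (0.482 to 0.537). This step moved with the width of the region at the start itself, that is the widest one with its center within 1 kb of the transcript start. Where no region lay at the start, the densities were 59.7 and 59.7 per Mb (ratio 1.00, 0.889 to 1.12). Where the widest region at the start was under 600 bp, they were 95.3 and 92.9 (ratio 1.03, 0.873 to 1.20). With a region of 600 bp to under 1 kb the ratio fell to 0.582 (0.520 to 0.651), and with a region of at least 1000 bp to 0.302 (0.276 to 0.330). In the last class the density was 33.3 per Mb at 4 to 5 kb, 87.7 at 5 to 6 kb and 117 at 6 to 7 kb.

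The same step was found around wide intronic regions far from any TSS. Around 1141 intronic regions of at least 1000 bp that lay more than 12 kb from any TSS, other intronic regions numbered 61.2 per Mb at 1.5 to 4.5 kb and 115 per Mb at 5.5 to 9.5 kb, a ratio of 0.533. Around regions of 600 bp to under 1 kb the ratio was 0.760, around regions of 300 bp to under 600 bp 0.914, and around regions under 300 bp 0.945. When all sequence within 5 kb of the center of a region of at least 1 kb was left out, the first to later ratio was 1.19 (1.17 to 1.22), the Mantel-Haenszel ratio within genes 1.13 (1.10 to 1.16) and the observed to expected ratio within genes 1.06 (1.04 to 1.08).

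**Figure D2:**
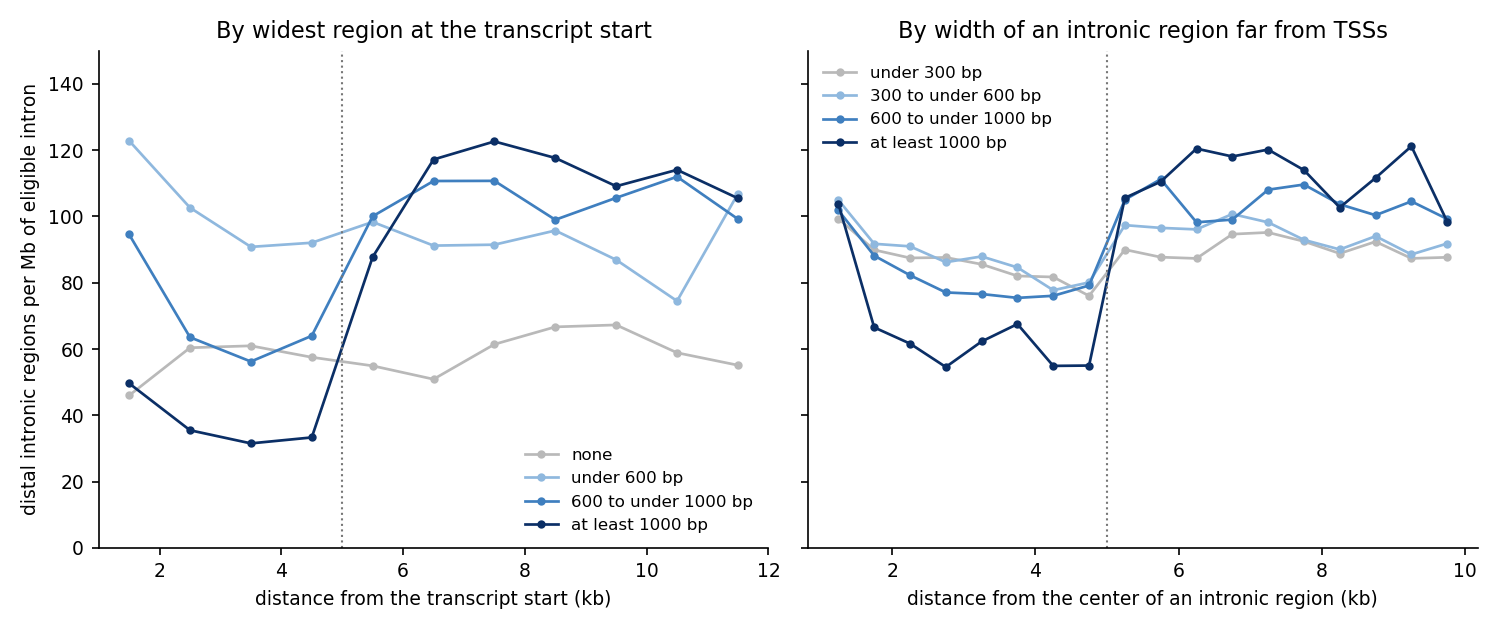
Distal intronic regions per Mb of eligible intron (y axis) by distance in kb, from the transcript start by the widest region there (left) and from the center of an intronic region more than 12 kb from any TSS by its width (right); the dotted line marks 5 kb. For regions of at least 1000 bp the density rises at 5 kb, from 33.3 to 87.7 per Mb at the start and from 55.0 to 106 per Mb around intronic regions, while it stays level where no region lies at the start.

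Beyond 5 kb, genes with a wide region at the start had the more intronic regions. At 5 to 10 kb, the density was 111 per Mb in genes with a region of at least 1000 bp at the start, 105 with 600 bp to under 1 kb, 92.9 with under 600 bp and 59.7 with none. In later introns of at least 20 kb, the sequence next to exons was no denser than sequence 5 to 10 kb from them. The first kb from the 5′ end of such introns held 55.3 regions per Mb (48.5 to 62.9) and the last kb before the 3′ end 59.5 (52.7 to 66.8), against 64.8 and 65.2 at 5 to 10 kb from either end. More than 10 kb from both ends the density was 52.4 (51.4 to 53.4), so the sequence at the 5′ end could not be told from this interior, while 1 to 2 kb from the 3′ end it was higher (61.6, 55.0 to 68.8).

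Intronic regions were spread over most long genes and few short ones. Of 18384 protein-coding genes with eligible bases, 10800 (58.7%, 58.0 to 59.5%) had at least 1 distal intronic region. The share was 6.95% of genes under 5 kb, 46.3% of genes of 10 to 20 kb, 94.7% of genes of 50 to 100 kb and all 218 genes over 500 kb. The median gene had 1 region, 1640 genes had at least 10 and 38 had at least 50. Density did not follow this order. It was highest, at 91.3 per Mb, in genes of 20 to 50 kb, and it fell to 57.7 per Mb in genes of 200 to 500 kb and to 39.9 per Mb in genes over 500 kb. Across genes, Spearman's rho between the number of regions and the eligible kb was 0.802, and between density and eligible kb -0.041 in the 10674 genes with at least 10 kb. Genes are not independent replicates, so both are descriptions. By intron, 19.1% of 140188 introns held a region, and 556 introns with at least 10 each held 15.3% of the regions assigned to an intron.

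The largest counts came partly from very long annotated transcripts. Gm20388 led with 430 regions in a span of 4435 kb, followed by Fgfr2, a receptor of fibroblast growth factors, with 204 regions in 2961 kb. Gm20388 holds 71 other protein-coding genes whole and Fgfr2 holds 29, and only 219 and 87 of their regions lay in no other protein-coding gene. Without the transcripts that hold 5 or more other protein-coding genes, Fgfr2 had 13 regions in 82.2 kb of eligible intron, and Gm37240 fell from 91 regions to 3. The 3 introns with most regions were of these 3 genes, with 219 in Gm20388, 86 in Fgfr2 and 59 in Gm37240.

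The other leading genes were long genes that held at most 1 other protein-coding gene. Gpc5 and Gpc6, which encode glypicans of the cell surface, had 140 and 99 regions. Pde4d, a cAMP phosphodiesterase, had 102, and Macrod2 had 97. Auts2, linked to neurodevelopment, had 78, and Sox5, a SOX family factor of neural and cartilage development, had 68. These 6 genes had between 0.497 and 0.985 regions per 10 kb of eligible intron, set beside a median of 0.717 in the 7626 genes with at least 20 kb. Msi2, an RNA-binding protein, differed, with 75 regions in 358 kb (2.09 per 10 kb). Its fullest intron, intron 5, held 27 regions in 122 kb.

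Other genes were far denser. Ube2e1, a ubiquitin-conjugating enzyme, had 30 regions in 41.1 kb (7.31 per 10 kb), the highest density among genes with at least 20 kb and 10 regions. Vkorc1l1, a paralog of the vitamin K epoxide reductase, had 19 regions in its single intron of 29.6 eligible kb (6.42 per 10 kb). Slc31a1, a copper transporter, had 12 regions (5.15 per 10 kb), and Ube2l3, Cbfa2t2 and Smarca5, the ISWI remodeler, had 4.67, 4.38 and 3.96 per 10 kb. The other 4 genes of the 10 densest were zinc-finger genes of chromosome 4, Zfp988 (6.98), Zfp980 (6.88), Zfp981 (5.33) and Zfp990 (4.94). These 4 belong to a family of near-identical copies, so reads at their regions may map to more than 1 copy. The median soft-masked share of their regions ran from 21.8% to 48.7%.

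Some long genes were nearly empty. Gria1, which encodes an AMPA receptor subunit, had 0 regions in 309 kb of eligible intron, and Nek11, a kinase, had 0 in 219 kb. Skint6, Prkd1 and Shisa9 had 1 each in 469, 304 and 281 kb. Set beside the median density of 0.439 per 10 kb in the 824 genes with at least 200 kb, these were the 5 lowest.

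**Figure D3:**
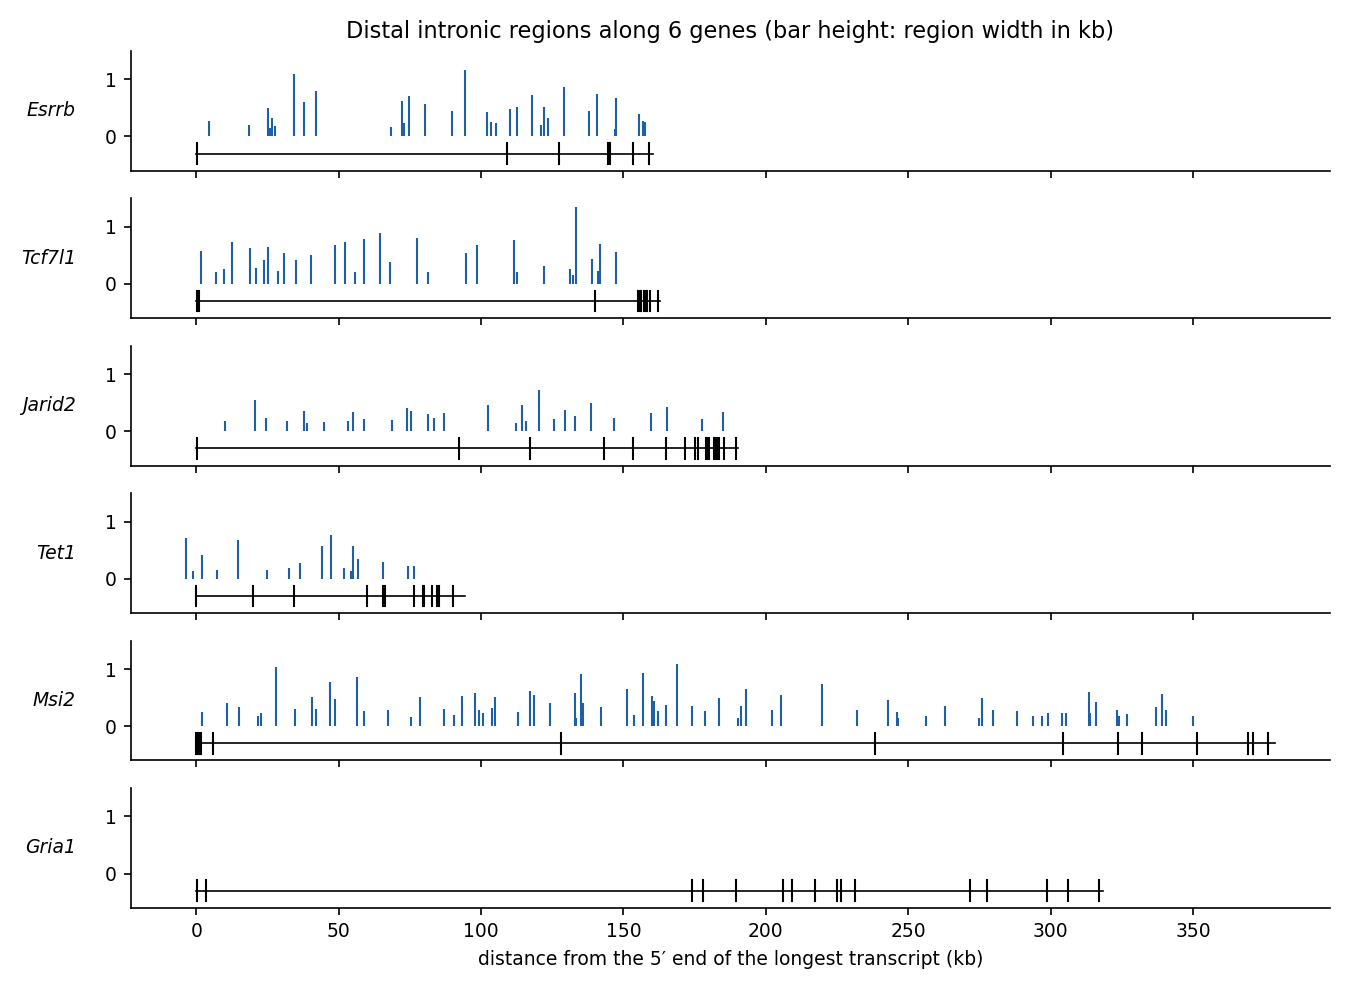
Distal intronic regions (blue bars, height in kb of width) in 6 genes, drawn with the longest transcript of each, with exons as black ticks, by distance in kb from its 5′ end. Esrrb, Tcf7l1, Jarid2, Tet1 and Msi2 hold 33, 32, 30, 17 and 75 regions, with 2 of the Tet1 regions upstream of the drawn start and inside the gene by another transcript, and Gria1 holds 0 over 318 kb.

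Genes of the pluripotency network had a higher median density of intronic regions than all genes. Of the 32 genes listed, 28 had eligible bases and 25 of these had a region, set beside 58.7% of all protein-coding genes, a share that rises steeply with gene length. Among the 19 with at least 10 kb of eligible intron the median was 1.96 regions per 10 kb, set beside 0.731 in all 10674 genes of that size. Esrrb had 33 regions in 149 kb (2.22 per 10 kb), of which 19 lay in its first intron of 109 kb, and the longest gap between 2 of them was 26.4 kb. Tcf7l1, a repressor that acts in the Wnt pathway, had 32 regions (2.31 per 10 kb), 29 of them in intron 3. Jarid2, a cofactor of the Polycomb complex PRC2, had 30 (1.72 per 10 kb), 16 in its first intron. Tet1, a 5-methylcytosine dioxygenase, had 17 (2.27 per 10 kb). Regions of Tcf7l1 were wide, with a median of 524 bp, and those of Tet1 narrow, with 281 bp. Nanog, with only 4.22 kb of eligible intron, had 2 regions. The targeted genes themselves had none. Pou5f1 spans 4.76 kb and holds 4 regions, all within 1 kb of a TSS, and the single-exon gene Sox2 lies inside the noncoding gene Sox2ot, which held 19 distal intronic regions over 578 kb.

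Genes of the trophectoderm and primitive endoderm, the earliest extraembryonic lineages, were not uniform. On the trophectoderm list, 10 of 16 genes had a region, a share close to the 58.7% of all protein-coding genes. The long annotated transcript of Fgfr2 supplied 204 of the 233 regions of this list. The 5 genes with at least 10 kb, Fgfr2 among them, had a median of 1.81 per 10 kb. Tead4, a TEAD factor of the trophectoderm, had the highest density of these 5, with 15 regions (2.19 per 10 kb). Elf5 had 5 and Gata3 had 3 regions. Cdx2, Hand1, Dlx3 and Gata2 had 1 region each in at most 4.03 kb, and Eomes, Tfap2a and Tfap2c had 0. On the primitive endoderm list, 12 of 14 genes had a region, with a median of 1.00 per 10 kb among 12 genes. Genes of the basement membrane led here, with 19 regions in Lama1, 17 in Col4a2 and 11 in Col4a1, while the endocytic receptor Cubn had 13. The regulators Gata4 and Gata6 had 1 and 2 regions in 63.9 and 24.1 kb.

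The median density was above that of all genes for chromatin regulators and below it for neuronal, muscle and liver genes. The 18 chromatin regulators with at least 10 kb had a median of 1.35 regions per 10 kb, with 38 in Arid1b, a BAF subunit, 15 each in Kdm2b and Smarcc1, and 14 in Dnmt3a. The 25 long neuronal genes held 1082 regions, but their median was 0.290 per 10 kb. All 25 had at least 10 regions, as had 1640 of all 18384 protein-coding genes with eligible bases. Such counts are common at this length, with a median of 27 regions in the 218 genes over 500 kb. Long genes were sparse in general, with a median of 0.439 per 10 kb in the 824 genes with at least 200 kb of eligible intron and 39.9 regions per Mb in all genes over 500 kb. Cntnap2 had 58 regions in 2139 kb and Ptprd had 57 in 2217 kb. Muscle and liver genes had a median of 0.413 per 10 kb, with 35 regions in Ryr2, 32 in Ryr3, 21 in Cacna1c and 16 in Ryr1. Housekeeping genes, most of them short, had a median of 0 in the 5 genes with at least 10 kb. Of the 11 with eligible bases, only Ywhaz, with 5 regions, and Tbp, with 1, held any. Set beside this, 58.7% of all protein-coding genes had a region, a share that rises steeply with gene length. B2m and Eef1a1 had 0 in 3.66 and 5.43 kb.

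**Figure D4:**
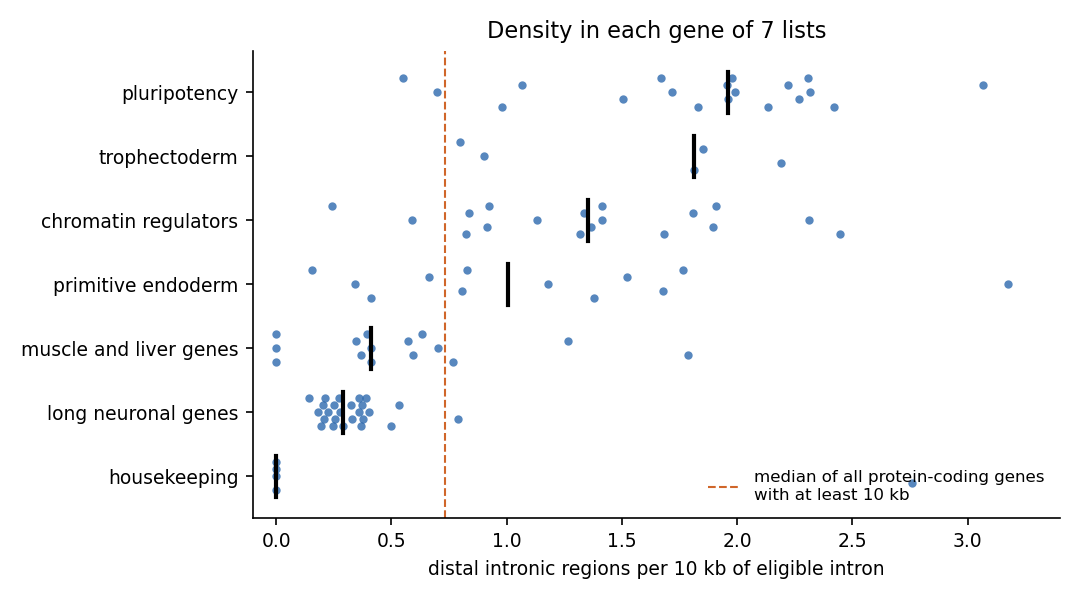
Distal intronic regions per 10 kb of eligible intron (x axis) in each gene with at least 10 kb of the 7 gene lists (points), with the median of the list (black bar) and of all protein-coding genes of that size (dashed line, 0.731). Pluripotency genes have a median of 1.96 and long neuronal genes of 0.290.

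**Figure D5:**
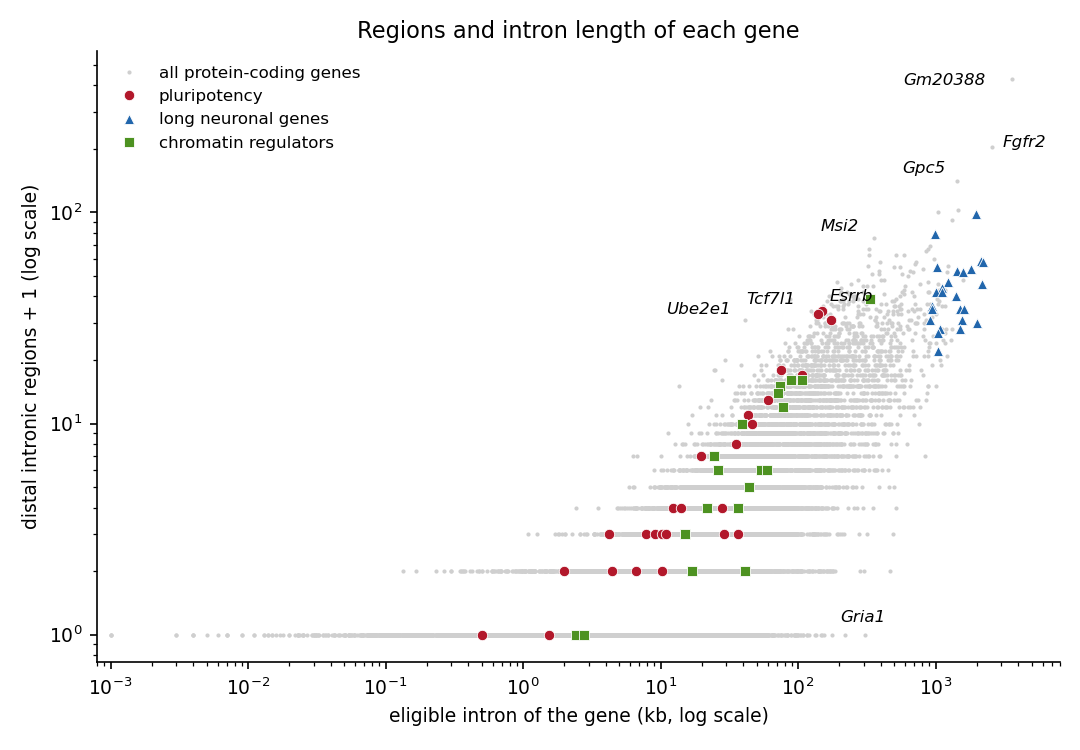
Number of distal intronic regions plus 1 (y axis, log scale) and eligible intron in kb (x axis, log scale) of each protein-coding gene, with 3 gene lists in color and the names of some genes. Pluripotency genes such as Esrrb, with 33 regions in 149 kb, lie in the upper part of the cloud, and long neuronal genes lie at the right below the leading genes.

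Noncoding hosts also held many regions. C230088H06Rik, Gm26624 and Gm26573, all annotated as intergenic noncoding RNAs on chromosome 4, held 126, 95 and 55 regions. Pvt1, the noncoding neighbor of Myc, held 43.

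The centers of intronic regions were richer in GC and poorer in repeats than their surroundings. In the central 200 bp the median GC content was 48.5%, against 44.5% in 200 bp windows 1 kb to either side and 48.0% in intergenic centers. The CpG observed to expected ratio was 0.253 in centers and 0.216 in flanks, and 0.364 over the centers of all autosomal regions, which include promoters. Soft-masked repeats made up 22.2% of the bases of intronic centers, 27.5% of their flanks and 30.8% of intergenic centers. First and later introns had the same median GC content (48.5%) and the same median width (335 bp).

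Strings of known motifs were more frequent in the centers than in the flanks. Each was searched as exact letters on both strands, and a match is a description of the sequence, not evidence of binding. The KLF string GGGTGTGGC was found in 941 centers (1.46%) and in 0.365% of flanks, a ratio of 3.99 (3.57 to 4.46), and in 1.29% of all autosomal region centers. The ESRRB string TCAAGGTCA was found in 1.48% of centers, a ratio of 2.49 (2.26 to 2.74), against 1.21% of all centers. The AP-2 string GCCNNNGGC was found in 7.25% of centers (ratio 1.98, 1.90 to 2.06; 9.33% of all centers) and the CTCF string CCANNAGGG in 5.28% (ratio 1.93, 1.84 to 2.03; 5.24% of all centers). The octamer ATGCAAAT was found in 2.00% (ratio 1.66, 1.54 to 1.78; 2.00% of all centers) and the SOX string CATTGT in 13.7% (ratio 1.26, 1.22 to 1.29; 12.6% of all centers). Centers were also richer in GC than flanks (median 48.5 against 44.5%), and no ratio was adjusted for base composition. At intergenic regions the ratios of centers to flanks were 4.18 for KLF, 2.31 for ESRRB and 2.61 for AP-2. For CTCF, the octamer and SOX they were 2.02, 1.82 and 1.15.

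Composite strings were rare. The junction string TTGTTATGC was found in 132 of 64607 intronic centers (0.204%, 0.172 to 0.242%), against 0.181% of all centers, and its ratio to flanks was 1.61 (1.27 to 2.04). The longer string TTGTNATGCAAA overlaps the junction string and most of the octamer, and was added after the shares of the other strings were seen. It was found in 40 intronic centers (0.0619%) and 16 of 129214 flanks, a ratio of 5.00 (2.74 to 9.56), and in 0.0576% of all centers. At intergenic regions the ratio to flanks was 1.93 for the junction string and 4.26 for the longer string. Intronic and intergenic centers differed in both directions. Relative to intergenic centers, the share was 0.768-fold for the octamer (0.714 to 0.827), 0.924-fold for AP-2 (0.888 to 0.962) and 0.964-fold for SOX (0.936 to 0.993), and 1.13-fold for KLF (1.03 to 1.24) and 1.17-fold for ESRRB (1.07 to 1.29). The CTCF string was less frequent in first than in later introns (4.83 and 5.59% of centers, ratio 0.864, 0.793 to 0.941). The ESRRB string was more frequent in first introns (1.67 and 1.43% of centers, ratio 1.17, 1.00 to 1.36), and for the other 6 strings the interval of this ratio included 1.

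The SOX, octamer, ESRRB and CTCF strings were not evenly placed on the strands of the host gene. The SOX string lay on the coding strand in 60.4% of matches (59.3 to 61.5%) and the octamer in 40.0% (37.1 to 42.9%). In the flanks the shares were 59.0% and 41.9%, close to those in centers. The ESRRB string lay on the coding strand in 42.6% of matches (39.3 to 46.0%) and the CTCF string in 47.4% (45.6 to 49.2%). Their shares in the flanks were 44.2% and 46.4%. For the KLF string (52.0%, 48.6 to 55.4%), the junction string (56.8%, 47.8 to 65.4%) and the longer composite string (51.4%, 35.9 to 66.6%) the interval included an even split. In the flanks the KLF share was 57.2% (52.3 to 61.9%), above an even split. The flank shares of the junction and longer strings were 56.8% (48.7 to 64.6%) and 42.9% (21.4 to 67.4%).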

How the data were processed

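Mouse ES cells were profiled by ATAC-seq in 12 libraries of 6 groups. The authors aligned reads to mm10 with STAR 2.6.1c, removed duplicates with Picard, found peaks with MACS2 2.1.1.20160309 and merged those of both lines with bedtools. Whether peaks were found per library or on pooled replicates is not given in the sources used here. Their later removal of peaks over 5 kb had not been applied, as the list holds an intronic region of 58315 bp. The same step also dropped regions that met peaks of input DNA or blacklisted stretches of the genome. Whether such regions remain in this list, the widest regions and the densest genes included, was not tested. MACS2 compares each candidate with the read density in surrounding windows, whose part in the 5 kb step was not tested. The deposited file gives the start and end of 170548 regions as positions, with no counts, score or value per library, so the depth per library is unknown here and nothing was compared between groups. There were 0 columns of other samples.

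Centers were placed on the GENCODE vM21 annotation and the RefSeq GRCm38.p6 sequence, which also gave soft-masking. No region ran past a chromosome end. All distances were from the region's center, and the limit was 1 kb from any TSS of any transcript. Introns came from the longest transcript by genomic span. Shares have Wilson intervals, ratios of densities exact conditional intervals and observed to expected ratios exact Poisson intervals, all at 95%. Regions and genes are not replicates. The ratio computation was tested on simulated data, where a planted ratio of 2 was recovered as 1.95 for the first to later comparison, over 127 genes.

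The members, gene lists and tests were chosen with earlier results of these data known. Named genes were the 10 with most regions, the 10 densest with at least 20 kb of eligible intron and 10 regions, the 5 least dense with at least 200 kb, the 4 with most regions in each list with Pou5f1 and Sox2, and the 3 fullest introns. Other genes of the lists, the widest regions, the noncoding hosts and the printed sequences were named after their values were seen. Alternatives for the width, distance, exon, gene, transcript and repeat rules are in the closing section. Analyses used Python 3.11.15, numpy 2.4.6, scipy 1.17.1 and matplotlib 3.10.9.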

Additional observations from a re-analysis of the deposited data

How the results depend on the processing

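No paired analysis was possible because the deposited positions carry no measurement of a single library, and no replicate could be left out. Of 71 alternative values, 44 stayed within the reported interval or within 1.5 times a count, 27 moved and 0 reversed. A reversal could be recorded only for ratios whose reported interval excluded 1. Counts, shares, medians and the within-gene ratio could not receive it. The causes of the moves were not tested. The intronic share was 46.6% with regions of at least 200 bp, 46.3% when distance was taken from protein-coding TSSs alone, 46.6% with X added, 43.5% where no base overlapped an exon, 41.3% inside protein-coding genes and 46.5% without transcripts that hold 5 or more other protein-coding genes. The intronic to intergenic ratio was 1.22 in bases that are not soft-masked and 1.29 without 5 kb around regions of at least 1 kb, an alternative chosen after seeing the data. The first to later ratio was 1.25 where no base overlapped an exon, 1.24 more than 5 kb from any TSS and 1.19 without sequence near wide regions. The within-gene observed to expected ratio was 1.06 (1.04 to 1.08), 1.07 and 1.06 in these 3 settings and 1.02 (1.00 to 1.04) in bases that are not soft-masked, with intervals above 1, and the Mantel-Haenszel ratios were 1.13, 1.15, 1.13 and 1.04. The ratio where no base overlaps an exon kept the bases beside exons in its denominator. The ratio at like distance was 1.05 with the longest transcript by exon length. The share of genes with a region was 54.5% with regions of at least 200 bp and 55.9% with regions in exactly 1 protein-coding gene. Of the 10 genes with most regions, 0 were among the 10 densest. Spearman's rho was 0.710 in genes with at least 10 kb. The median GC content was 48.2% over whole regions, and the median width 417 bp in regions of at least 200 bp. With 400 bp centers the other motif ratios were lower (KLF 3.07, ESRRB 2.14, AP-2 1.77, CTCF 1.71, octamer 1.39, SOX 1.14), and ESRRB was 2.85 with flanks at 2 kb. All kept their direction.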
